A study of Mus musculus with 9 samples.

Results

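The insulin-like growth factor axis was followed through 10 genes, taken by symbol from the deposited tables of 9 mouse uterus libraries: the ligand genes Igf1 and Igf2, the receptor genes Igf1r and Insr, and the binding protein genes Igfbp2, Igfbp3, Igfbp4, Igfbp5, Igfbp6 and Igfbp7. All 10 symbols were found among 34619 unique symbols. Of these 10, 9 reached the level set for testing (1 FPKM or more in at least 3 libraries), and Igf2 did not. The values are FPKM, read counts scaled to the length of the gene and to the reads of the library.

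The study gave female wild-type CD-1 (ICR) mice, an outbred stock bought at 7 to 8 weeks of age and acclimatized for 1 week, daily gavage for 28 days with corn oil alone (control), with bisphenol B (BPB) or with bisphenol AF (BPAF). The daily dose of either bisphenol was 300 µg for each kg of body weight. All groups were kept on feed described as free of estrogen. RNA came from whole uterus, with 3 libraries in each group. The labels give neither the stage of the estrous cycle at collection nor whether the 3 libraries of a group are 3 separate mice, so p-values measure the spread between these libraries only.

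Insulin-like growth factors 1 and 2 are secreted peptides related to insulin that act mainly through the receptor tyrosine kinase encoded by Igf1r. The insulin receptor, encoded by Insr, binds insulin and also, in one of its forms, insulin-like growth factor 2. High-affinity binding proteins hold the ligands in the tissue and in the blood, and proteases release them again. In the rodent uterus Igf1 is known as an estrogen-induced gene whose product carries growth signals from the stroma to the epithelium.

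The members that varied most between libraries, Igfbp2 and Igfbp3, and the member that varied least, Igfbp7, are shown here by the 250 bases before their RefSeq start, to set the control regions of these genes side by side. The capitals mark matches to TATAAA (the TATA box), GGGCGG (the GC box), AGGTCA (a half-site of the estrogen response element) or GTAAACA (a forkhead box O site), on either strand. The sequences are from RefSeq (GRCm38.p6), printed 5′ to 3′ on the strand of the gene, and do not overlap an exon of GENCODE M21.
Igfbp2, chr1:72824230-72824479, + strand: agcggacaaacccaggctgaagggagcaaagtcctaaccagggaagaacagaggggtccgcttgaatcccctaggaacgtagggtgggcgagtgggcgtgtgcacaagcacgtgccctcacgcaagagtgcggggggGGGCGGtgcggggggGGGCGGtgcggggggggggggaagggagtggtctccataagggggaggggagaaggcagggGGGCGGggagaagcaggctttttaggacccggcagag
Igfbp3, chr11:7213924-7214173, - strand: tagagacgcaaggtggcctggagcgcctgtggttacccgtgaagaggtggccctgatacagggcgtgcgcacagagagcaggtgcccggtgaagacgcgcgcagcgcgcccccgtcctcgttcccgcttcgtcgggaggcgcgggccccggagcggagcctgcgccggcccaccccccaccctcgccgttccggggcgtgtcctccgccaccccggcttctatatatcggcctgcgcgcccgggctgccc
Igfbp7, chr5:77408046-77408295, - strand: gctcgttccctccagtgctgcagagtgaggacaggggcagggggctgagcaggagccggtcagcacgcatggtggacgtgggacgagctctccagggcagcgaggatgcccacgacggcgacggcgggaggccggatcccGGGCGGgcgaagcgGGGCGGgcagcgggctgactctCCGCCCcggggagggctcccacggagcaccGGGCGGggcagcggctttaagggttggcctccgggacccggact
Igfbp2 held 3 GC boxes before the start shown and Igfbp7 held 4, and Igfbp3 held no exact match to any of the 4 motifs. Other spellings of a motif were not searched. Igfbp2 has another RefSeq start, not shown, which held none of them. In the same window, a GC box was present in 32.7% of 32851 mouse promoters, a TATA box in 12.4%, the estrogen half-site in 14% and the forkhead site in 3.17%. RefSeq entries were found for 9 of the 10 genes, with 13 promoters in all. Single half-sites lay before Igf1, before 1 of the 4 starts of Igf2 and before Igf1r. A match describes letters only and was not related to the expression values.

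The libraries rested on 12620189 to 15616779 reads. The 13 mitochondrial coding genes took 3.40% and 3.52% of the reads in controls 2 and 1, 13.0% in control 3, and 5.81% to 8.31% in the 6 others. Hoxa10, Hoxa11, Hand2 and the other markers of uterine identity, 6 of 6, were above 1 FPKM in every library. The 3 BPB libraries and BPAF 1 also held genes of the urothelium, the lining of the urinary tract. Summed over 7 urothelial markers they held 1288 to 2504 FPKM, with 7 of 7 markers at 1 FPKM or more, against 6.91 to 74.7 FPKM in the other 5 libraries, in which the uroplakin gene Upk3a was listed at 0. The part of this urothelial signal in the differences below was not tested. Values without BPAF 1 do not test it either, as BPB then holds all the libraries high in these markers.

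None of the 9 tested genes of the axis was called between any pair of groups. The test was limma on log2(FPKM + 1) with Benjamini-Hochberg adjustment over 13743 genes. In BPB against control 0 of 9 were called, where 2.55% of all genes were (2.05%, or 282, higher and 0.502%, or 69, lower). Scaling by median ratios made that split 198 and 107, with a median over all genes of -0.04 in place of 0.15 on the log2 scale in BPB and of -0.02 in place of 0.21 in BPAF. In BPAF against control 0 of 9 were called (0.0218% of all genes, 0.00728% higher and 0.0146% lower), and in BPAF against BPB 0 of 9 (0.24% of all genes, all of them lower). At an unadjusted p under 0.05 stood 1 of the 9 in BPB against control (17.4% of all genes), 0 in BPAF against control (12.8%) and 1 in BPAF against BPB (6.75%). The median log2 difference of the 9 genes was 0.27 in BPB and 0.02 in BPAF against control, where that of all tested genes was 0.15 and 0.21.

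**Figure D1:**
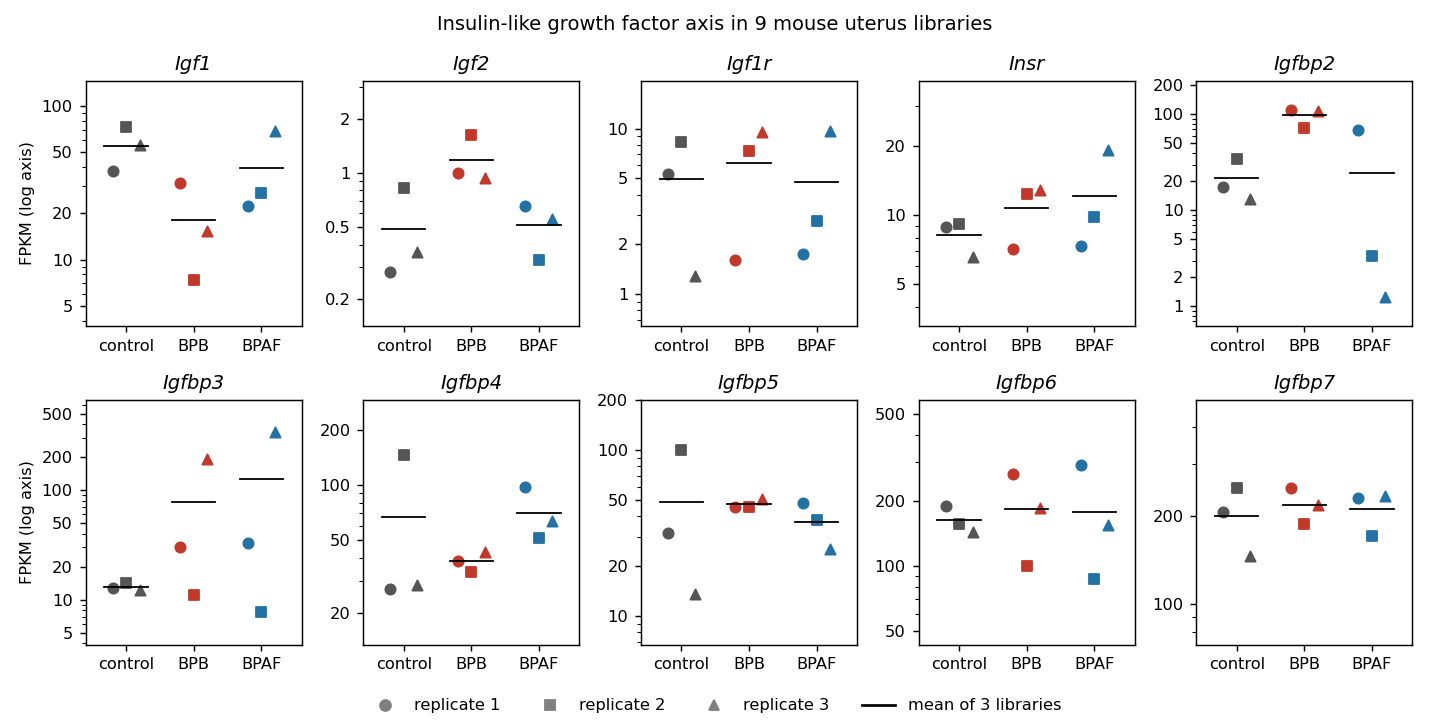
FPKM of the 10 genes (log axis, each panel with its own range) in the control, BPB and BPAF libraries, with 1 point per library, the marker shape giving the replicate number and a line at the mean of 3 libraries. Igf1 lay lower in the 3 BPB libraries than in the 3 controls, Igfbp2 was high in BPB and in BPAF 1, and Igfbp3 was high in BPB 3 and BPAF 3.

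Igf1, the gene of the main ligand, had 37.5, 72.7 and 55.3 FPKM in controls 1, 2 and 3. It had 31.4, 7.39 and 15.4 FPKM in BPB 1, 2 and 3, and 22.5, 27.3 and 69.0 FPKM in BPAF 1, 2 and 3. All 3 BPB libraries lay below all 3 controls, whereas the BPAF libraries overlapped with both. Behind these values stood 1516 reads in BPB 2 to 13252 reads in control 2. The group means were 55.2 ± 17.6 FPKM in control, 18.1 ± 12.2 in BPB and 39.6 ± 25.6 in BPAF (SD, n = 3). For BPB against control the log2 difference was -1.72 (SE 0.55, 95% interval -2.96 to -0.48), with an unadjusted p of 0.0117 and an adjusted p of 0.148 in limma. In BPAF against control it was -0.59 (95% interval -1.83 to 0.65, limma adjusted p = 0.670). Over 21 alternative settings the BPB difference stayed negative, between -2.21 and -1.23, with an adjusted p of 0.0996 to 0.410 in limma. Because these are whole organs, fewer cells that make a transcript and less of it per cell cannot be told apart. Among 8 stromal and fibroblast markers 0 were called in BPB (2.55% of all genes) and all 8 had lower means there. In 2 of them, Col1a2 and Col3a1, all BPB libraries lay below all controls (6.1% of all genes). The log2 differences ran from -1.84 (Col1a2) to -0.01 (Vim). Summed, the 8 genes had 1084 to 2433 FPKM in BPB, 1122 to 2079 in BPAF and 2779 to 4028 in control. By mean log2(FPKM + 1) of the list BPB and control overlapped, with 7.30 in BPB 1 and 7.22 in control 3. The part of the stroma in the Igf1 values was not tested.

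Igf2, the second ligand gene, is imprinted and known for its high level in the fetus. Its values were near 1 FPKM or below in every library except BPB 2. The controls had 0.282, 0.828 and 0.361 FPKM, BPB had 1.0, 1.62 and 0.935, and BPAF had 0.658, 0.328 and 0.551. The BPB libraries lay above all other 6, with 165 to 333 reads against 56 to 151. With the filter lowered to 1 FPKM in any single library, the log2 difference of Igf2 was 0.56 for BPB against control (95% interval 0.03 to 1.08) and did not pass (limma adjusted p = 0.261). For BPAF against control it was 0.03 (95% interval -0.49 to 0.56, limma adjusted p = 0.967). On this scale the added 1 compresses changes of a gene this low: the ratio of the group means was 2.42 for BPB over control. Igf1 exceeded Igf2 in every library, by FPKM ratios of 4.56 in BPB 2 to 153 in control 3. The lengths behind these FPKM exceed the merged exons 2.30 times for Igf2 and 1.33 times for Igf1, so the ratios are lower on merged exons. That ratio was 87.8 to 153 in the controls, 4.56 to 31.4 in BPB and 34.2 to 125 in BPAF.

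The receptor genes varied among the libraries of each group. Igf1r had 5.32, 8.24 and 1.29 FPKM in the controls, 1.62, 7.36 and 9.60 in BPB and 1.75, 2.76 and 9.68 in BPAF. Each group thus held at least 1 library below 2 FPKM and at least 1 above 8 FPKM, and the ranges of all 3 groups overlapped. The log2 difference was 0.27 in BPB (95% interval -1.33 to 1.86, limma adjusted p = 0.899) and -0.09 in BPAF (SE 0.71, limma adjusted p = 0.971) against control. The BPB interval spans decreases as well as increases. Control 3, BPB 1 and BPAF 1, the libraries lowest in Igf1r, had mitochondrial shares of 13.0%, 8.31% and 6.33%. BPB 2, with a share of 8.16%, had 7.36 FPKM of Igf1r, and the part of RNA composition in these values was not tested.

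Insr ran from 6.58 FPKM in control 3 to 19.3 FPKM in BPAF 3. Group means were 8.23 ± 1.44, 10.8 ± 3.22 and 12.2 ± 6.29 FPKM in control, BPB and BPAF (SD, n = 3), with overlapping ranges. The log2 difference from control was 0.33 in BPB (SE 0.36, limma adjusted p = 0.710) and 0.42 in BPAF (SE 0.36, limma adjusted p = 0.641). The BPAF value was 0.058 without BPAF 3, the highest library, and 0.70 without BPAF 1, the lowest of that group. On the gene lengths behind the deposited values, Insr stood above Igf1r in FPKM in all 9 libraries, by 1.12 times in control 2 to 5.11 times in control 3.

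Igfbp2, which encodes a binding protein with a preference for insulin-like growth factor 2, divided the libraries most widely, by a factor of 89.1 between the highest and the lowest. The controls had 17.7, 33.9 and 13.0 FPKM and the BPB libraries 111, 71.9 and 109. BPAF 1 had 68.4 FPKM, close to BPB, and BPAF 2 and 3 had 3.35 and 1.25 FPKM, below every control. All 3 BPB libraries lay above all controls and above all BPAF libraries. Group means were 21.5 ± 10.96 FPKM in control, 97.5 ± 22.2 in BPB and 24.3 ± 38.2 in BPAF (SD, n = 3).

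With all libraries in the fit, the log2 difference of Igfbp2 between BPB and control was 2.21 (SE 1.05, 95% interval -0.14 to 4.56, limma adjusted p = 0.317). Without BPAF 1 the same difference had an adjusted p of 0.0262 in limma, and in a fit of the 6 BPB and control libraries alone 0.0258. Leaving out any other library gave an adjusted p of at least 0.225. Igfbp2 was high in the same 4 libraries that were high in the urothelial markers. As all 3 BPB libraries and no control were high in them, Igfbp2 of the uterus itself and Igfbp2 that comes with the urothelial signal cannot be told apart in that comparison. Of 8 smooth muscle markers 0 were called in BPB against control (2.55% of all genes). In 6 of the 8 all BPB libraries lay above all controls (19.5% of all genes). In all 8 the BPAF libraries lay below every BPB library (6.41% of all genes). Summed, the 8 markers had 7442 to 11892 FPKM in BPB, 3572 to 5685 in control and 1053 to 3438 in BPAF. The part of smooth muscle in the Igfbp2 values was not tested.

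Igfbp3 encodes the main carrier of the ligands in the blood, which is also made in tissues. Its controls were close together, at 12.9, 14.2 and 12.1 FPKM. The BPB libraries had 30.4, 11.1 and 191 FPKM, and the BPAF libraries 32.7, 7.77 and 336 FPKM. In either exposed group 1 library lay below all controls and the other two above, with replicate 3 far above. The number of reads was 9700 in BPB 3 and 16990 in BPAF 3, against 429 to 1677 in the other 7. The log2 difference from control was 1.57 in BPB (95% interval -1.29 to 4.44, limma adjusted p = 0.586) and 1.72 in BPAF (95% interval -1.14 to 4.59, limma adjusted p = 0.584). Without BPB 3 it was 0.47 in BPB, and without BPAF 3 it was 0.29 in BPAF.

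The 4 other binding protein genes overlapped between the exposed groups and control. Igfbp4, whose protein is known as an inhibitor of both ligands, had 27.1 and 28.4 FPKM in controls 1 and 3 and 146 in control 2. It stayed within 33.4 to 43.3 FPKM in BPB and 51.3 to 97.4 FPKM in BPAF, so that every BPAF library lay above every BPB library (6.54% of all genes did so). That difference was 0.82 on the log2 scale (95% interval -0.49 to 2.12, limma adjusted p = 0.951). Against control, the log2 difference of Igfbp4 in BPB was -0.33 (limma adjusted p = 0.831) and became 0.45 without control 2.

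Igfbp5, which encodes a binding protein that attaches to extracellular matrix, followed the same controls, with 31.8, 101 and 13.5 FPKM in controls 1, 2 and 3. The exposed libraries lay between, at 45.3 to 50.7 FPKM in BPB and 25.3 to 48.0 in BPAF. Differences from control were 0.40 in BPB (SE 0.59, limma adjusted p = 0.795) and 0.02 in BPAF (SE 0.59, limma adjusted p = 0.993). The spread was thus in the controls: their highest value was 7.45 times the lowest for Igfbp5 and 5.39 times for Igfbp4, against 1.12 and 1.29 times in BPB.

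Igfbp6 and Igfbp7 were the most abundant members in the controls. Igfbp6, which prefers insulin-like growth factor 2, had 143 to 188 FPKM in control, 99.8 to 264 in BPB and 86.6 to 293 in BPAF. Its log2 difference was 0.07 in BPB (95% interval -1.01 to 1.16, limma adjusted p = 0.962) and -0.03 in BPAF (95% interval -1.12 to 1.06, limma adjusted p = 0.987), and the BPB value was -0.17 under scaling by median ratios. Igfbp7, a related secreted protein with low affinity for the ligands, had 145 to 247, 188 to 249 and 170 to 233 FPKM in control, BPB and BPAF. The intervals of Igfbp7, -0.52 to 0.82 in BPB and -0.57 to 0.77 in BPAF, were the narrowest of the 9 genes, and both estimates (0.15 and 0.10) turned negative under scaling by median ratios (-0.09 and -0.20).

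**Figure D2:**
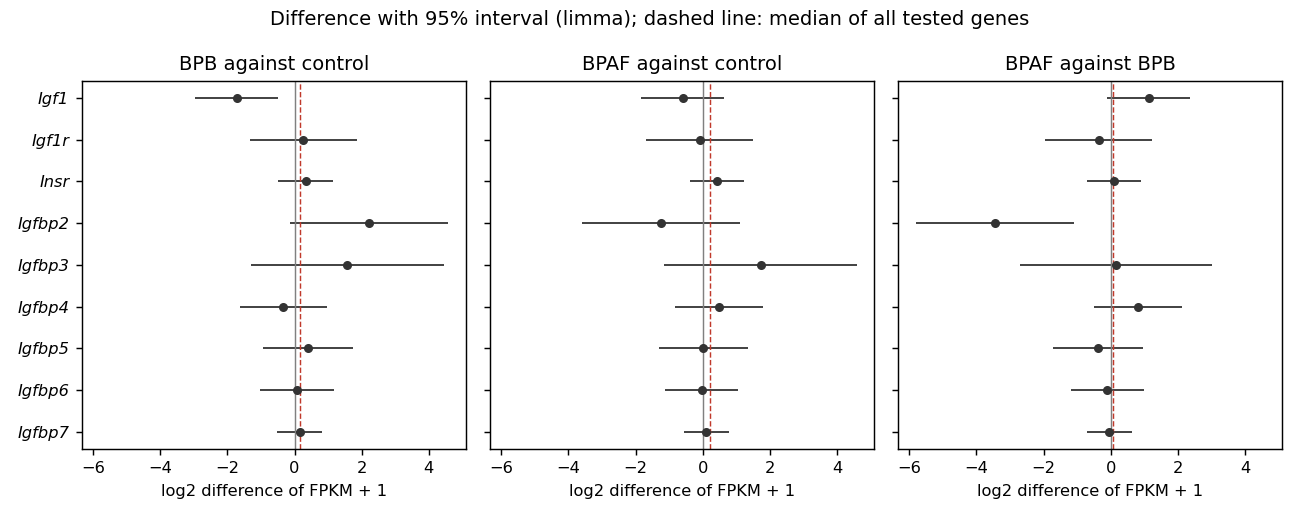
Log2 difference of FPKM + 1 (horizontal axis) for the 9 tested genes in the 3 comparisons, with points at the limma estimate and bars for its 95% interval, a grey line at 0 and a dashed line at the median of all tested genes. The intervals of Igf1 in BPB against control (-2.96 to -0.48) and Igfbp2 in BPAF against BPB (-5.81 to -1.11) lay on 1 side of 0, and neither difference passed after adjustment.

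BPB and BPAF differ at the carbon that joins the phenol rings, which carries a methyl and an ethyl group in BPB and a pair of trifluoromethyl groups in BPAF. They were compared at the same mass dose and time, over the 9 tested genes, with p-values adjusted over all genes. Igfbp2 had the largest difference of the 9, -3.46 in BPAF against BPB (SE 1.05, 95% interval -5.81 to -1.11), with an unadjusted p of 0.00861 and an adjusted p of 0.373 in limma. Without BPAF 1 it was -4.95 (limma adjusted p = 0.00128). That fit sets BPAF 2 and 3, low in the urothelial markers (6.91 and 14.3 FPKM summed), against BPB with 1494 to 2504 FPKM. Compound and urothelial signal thus split its libraries in the same way, and their separate parts in the Igfbp2 value were not tested. Igf1 was higher in BPAF by 1.13 on the log2 scale (95% interval -0.11 to 2.37, limma adjusted p = 0.791), with overlapping libraries. Among the remaining 7 genes the estimates ran from -0.38 (Igfbp5) to 0.82 (Igfbp4), and the interval of Igfbp3 ran from -2.72 to 3.02, so that these data do not show that the compounds act alike on them. Libraries of BPB and BPAF with the same replicate number deviated together, as did some control and BPB libraries with different numbers. With the replicate number as a block in the fit of all 9 libraries 0 genes were called in place of 33. A fit of these 6 libraries alone also called 0, with the block or without it. For Igfbp2 the adjusted p in the 6 libraries with the block was 0.315 in limma.

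Between 1 group and another, 2 of the 9 tested genes had libraries that did not overlap in BPB against control (Igf1 lower, Igfbp2 higher), where 25.6% of all genes did so. In BPAF against control it was 0 of 9 (16.8% of all genes, 14.3% higher and 2.5% lower). In BPAF against BPB it was 2 of 9, Igfbp4 higher and Igfbp2 lower (13% of all genes, 6.54% higher and 6.41% lower). The spread between libraries of a group was wide for most of the axis. The pooled SD of log2(FPKM + 1) within groups was 1.93 for Igfbp3, 1.58 for Igfbp2 and 1.05 for Igf1r, above that of 99.5%, 99.1% and 96.2% of the tested genes, whose median was 0.40. Igfbp7, at 0.29, was the one tested member below that median.

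**Figure D3:**
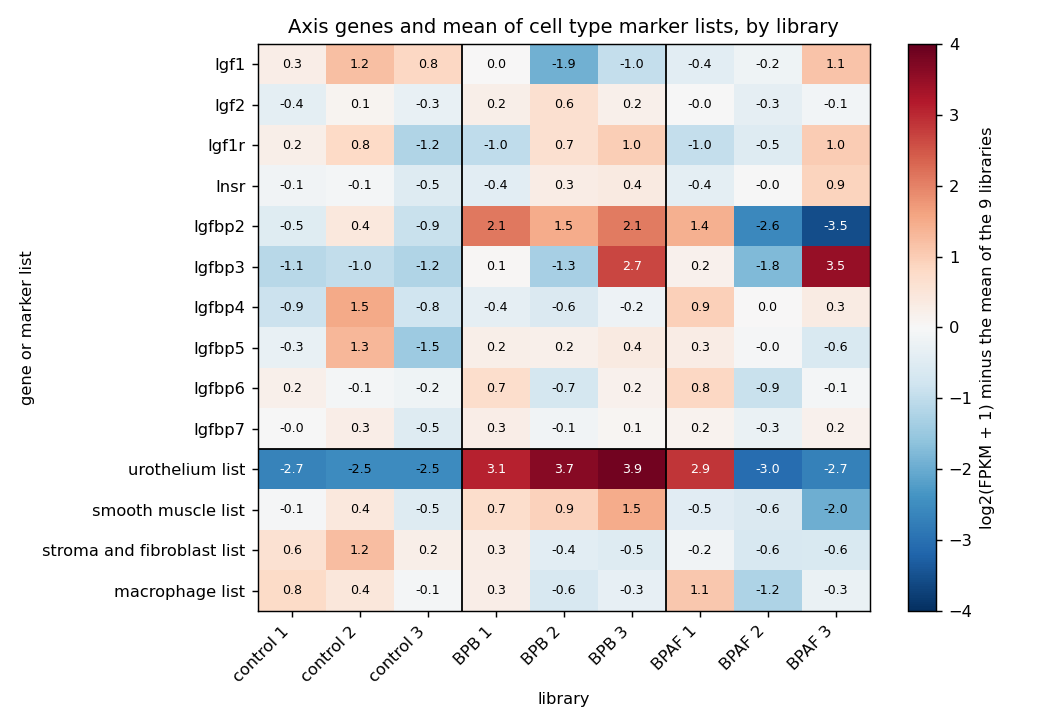
Log2(FPKM + 1) of each of the 10 genes and mean log2(FPKM + 1) of 4 marker lists, each minus its mean over the 9 libraries (columns), with red above and blue below that mean. Igfbp2 and the urothelium list were above their means in BPB 1, 2 and 3 and BPAF 1, and Igfbp3 was highest in BPB 3 and BPAF 3. Igfbp2 was also above its mean in control 2, where the urothelium list was below its own.

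The summed FPKM of the 6 binding protein genes was 355 to 698 in control, 449 to 798 in BPB and 357 to 813 in BPAF. In BPAF 3 the largest share was that of Igfbp3, at 41.3%, and in the other 8 libraries it was that of Igfbp6 or Igfbp7. Igfbp2 took 3.66% to 4.86% of the sum in the controls, 13.7% to 16.0% in BPB, 8.89% in BPAF 1, and only 0.940% and 0.154% in the other two BPAF libraries. The ratio of Igf1 to the summed binding proteins was 0.0775 to 0.156 in the controls, 0.0164 to 0.0424 in BPB and 0.0292 to 0.0849 in BPAF. The BPB libraries did not overlap with the controls in this ratio, and 1 of the 3 BPAF libraries lay within the range of the controls. As Igf1 alone did not overlap between BPB and control either, the ratio is not a separate result.

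**Figure D4:**
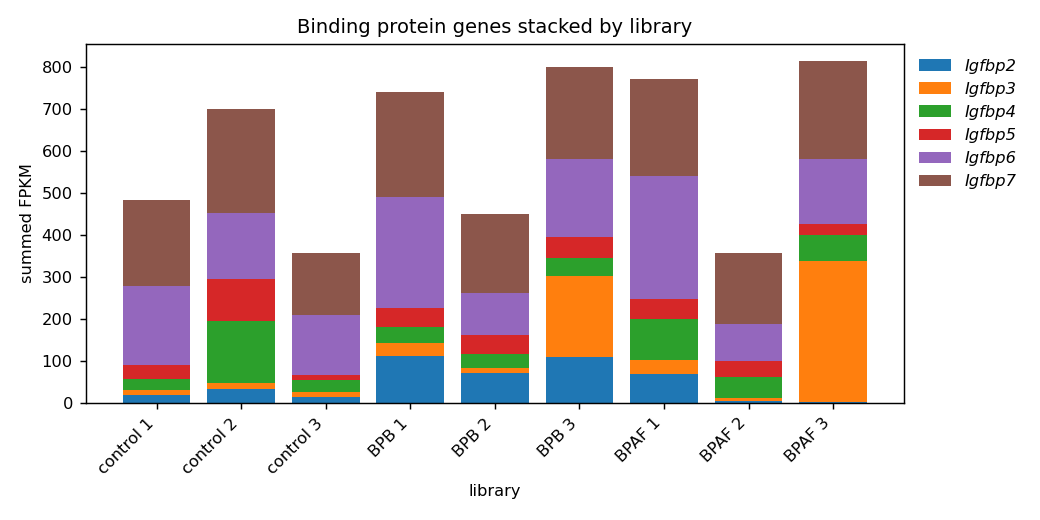
Summed FPKM of the 6 binding protein genes (stacked bars from 0) in each of the 9 libraries. Igfbp2 (blue, lowest segment) took 71.9 to 111 FPKM in BPB and 68.4 FPKM in BPAF 1, and Igfbp3 (orange) took 191 FPKM in BPB 3 and 336 FPKM in BPAF 3.

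In the order of control means, Igfbp7 (199 ± 51.3 FPKM) and Igfbp6 (162 ± 23.4) stood first, followed by Igfbp4 (67.1 ± 68.2), Igf1 (55.2 ± 17.6), Igfbp5 (48.8 ± 46.1), Igfbp2 (21.5 ± 10.96), Igfbp3 (13.1 ± 1.05), Insr (8.23 ± 1.44), Igf1r (4.95 ± 3.49) and Igf2 (0.491 ± 0.295), each a mean ± SD of 3 libraries. In FPKM, neighbours in this order overlapped between libraries except Igfbp3 with Insr and Igf1r with Igf2. FPKM compares genes per length of the gene model behind it, and for 7 of the 10 genes that length counted overlapping exons more than once. On merged exon lengths Igfbp5 (80.7 ± 76.2) stood above Igf1 (73.2 ± 23.4), within their spread. Igf1r (1.42, 2.20 and 0.344 in controls 1, 2 and 3) and Igf2 (0.649, 1.90 and 0.831) overlapped on merged lengths. The gene model behind the Igf1r values differs from the annotation that was merged.

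The genes most like each member over the 9 libraries were taken by Pearson correlation of log2(FPKM + 1) among 12492 of the other tested genes. Tested genes with a RIKEN, Gm, pseudogene or clone name were left out beforehand. The likeness is a description of these libraries, which share depth, group and tissue make-up. Igfbp2 was closest to Fibin (r = 0.944), to Pdlim3, a muscle LIM protein gene (r = 0.940), and to Adh7, a retinol and alcohol dehydrogenase gene (r = 0.936). The level of Adh7 was 17.7 to 24.7 FPKM across BPB and 18.5 FPKM for BPAF 1, against 4.21 to 6.25 FPKM for the controls and 2.01 and 1.65 FPKM for BPAF 2 and 3. Its high libraries were therefore those of Igfbp2.

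Igfbp3 was closest to Cyp26a1, which encodes a retinoic acid hydroxylase (r = 0.984), to the transporter gene Slc10a6 (r = 0.967) and to the endothelin receptor gene Ednrb (r = 0.965). Cyp26a1 had 46.3 FPKM in BPB 3 and 154 in BPAF 3, 0.506 to 3.44 in BPB 1 and 2 and BPAF 1, 0.270 in BPAF 2 and at most 0.224 in the controls. By rank over the 9 libraries the likeness of Cyp26a1 was weaker (Spearman rho = 0.683), so that r rests mainly on BPB 3 and BPAF 3. Igf1r was closest to Rere, a transcriptional corepressor gene (r = 0.985), and Vps13d, a lipid transfer protein gene (r = 0.983). Insr was closest to Ogt, the enzyme that attaches N-acetylglucosamine to proteins (r = 0.968), which ran from 10.5 FPKM in control 3 to 84.4 in BPAF 3.

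Igf1 was closest to Znhit6 (r = 0.927) and to Creld2, a gene of the endoplasmic reticulum stress response (r = 0.918). Creld2 had 40.9 to 49.5 FPKM in control, 17.6 to 34.2 in BPB and 32.5 to 70.8 in BPAF. Igfbp6 was closest to P2rx5 (r = 0.926), and next to Lyz2 (r = 0.925) and C1qb (r = 0.900), both genes of macrophages. The 7 macrophage markers had summed levels of 93.2 to 175 FPKM in control, 52.1 to 126 in BPB and 31.1 to 263 in BPAF, and their part in the Igfbp6 values was not tested. Igfbp4 and Igfbp5 were closest to Krtcap2 (r = 0.935) and Slc35e3 (r = 0.953), and Igfbp7 to Tmem150a (r = 0.948).

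Genes around the axis were described in 3 lists, chosen with earlier results of these data known. Among regulators of ligand and receptor, 9 of 16 genes reached the level for testing. Of these 9, 0 were called in BPB against control (2.55% of all genes). At an unadjusted p under 0.05 in limma stood 0 of the 9 (17.4% of all genes). Their median log2 difference was -0.19, beside 0.15 for all tested genes. Stc1 and Stc2 encode stanniocalcins, which restrain the proteases that cut binding proteins. Stc1 had 1.57 to 3.78 FPKM in control and 3.61 to 8.76 in BPB (limma adjusted p = 0.330), and Stc2 1.67 to 8.61 and 1.84 to 3.0 (limma adjusted p = 0.409). Igf2r, the receptor that removes insulin-like growth factor 2, had 5.92 to 19.2 FPKM in control and 12.9 to 21.8 in BPB (limma adjusted p = 0.584). Igfbp1, the remaining classical binding protein gene, did not reach the level for testing.

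Of 40 tested genes of intracellular signalling 1 rose (2.05% of all genes) and 1 fell (0.502% of all genes) in BPB against control. Grb14, which encodes an adaptor that binds and inhibits the insulin receptor, rose from 0.438, 0.536 and 0.496 FPKM in the controls to 3.27, 3.44 and 2.80 in BPB, a log2 difference of 1.48 (SE 0.22, limma adjusted p = 0.0190). In BPAF it had 0.886, 0.938 and 1.69 FPKM, above every control and below every BPB library. It did not pass in BPAF against control (0.52, limma adjusted p = 0.366) or in BPAF against BPB (-0.96, limma adjusted p = 0.173). Leaving out BPB 2, BPB 3, control 1 or control 3 ended the BPB call, with adjusted p of 0.128, 0.119, 0.0967 and 0.0519 in limma. All 3 BPB libraries and no control were high in the urothelial markers, and the part of these in the Grb14 values was not tested.

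Socs3, a feedback inhibitor of cytokine and insulin receptor signalling, fell from 19.7, 19.8 and 8.60 FPKM in the controls to 6.27, 4.05 and 3.31 in BPB, by 1.57 on the log2 scale (SE 0.34, limma adjusted p = 0.0493). All 3 BPAF libraries (5.74, 5.73 and 7.21 FPKM) also lay below the controls, and the difference did not pass there (-1.16, limma adjusted p = 0.301). The BPB call was lost without control 1, control 2, any single BPB library or any single BPAF library, with an adjusted p of 0.0596 to 0.217 in limma. Socs2, an inhibitor of growth hormone signalling, had 7.70 to 8.83 FPKM in control and 2.21 to 5.94 in BPB (limma adjusted p = 0.132). The median of the 40 genes was 0.13, beside 0.15 for all tested genes, and 6 of the 40 had an unadjusted p under 0.05 (17.4% of all genes).

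The third list held genes that forkhead box O factors, which insulin-like growth factor signalling keeps out of the nucleus, are known to activate. Of its 11 tested genes 0 were called in BPB against control by limma (2.55% of all genes) and 4 had an unadjusted p under 0.05 (17.4% of all genes). In 6 of the 11 all BPB libraries lay above all controls (19.5% of all genes) and in 1 below (6.1% of all genes), and the median log2 difference was 0.76, beside 0.15 for all tested genes. The 2 genes with lower means in BPB were Bcl6 (-0.51) and Gadd45a (-0.49). As the list was chosen with earlier results of these data known, the counts only describe these libraries. The part of forkhead box O factors was not tested. Txnip, an inhibitor of thioredoxin, had 20.7 to 27.5 FPKM in control and 48.8 to 85.2 in BPB (limma adjusted p = 0.103). Pdk4, a kinase that shuts pyruvate off from oxidation, had 1.47 to 3.61 and 5.21 to 14.4 FPKM (limma adjusted p = 0.157), and Sesn1, a sestrin, 6.53 to 7.93 and 18.2 to 33.4 (limma adjusted p = 0.220). In BPAF against control the median of this list was 0.53, beside 0.21 for all tested genes, with 0 genes called (0.0218% of all genes) and 4 at an unadjusted p under 0.05 (12.8% of all genes). The BPAF libraries lay far apart in Sesn1, at 22.2, 7.95 and 62.5 FPKM. Both comparisons share the 3 control libraries.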

How the data were processed

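Libraries of mRNA from 9 uterus samples were made by the authors with a stranded kit, per the labels' protocols, and groups were taken from the sample titles. The authors deposited 1 value per gene symbol, read here as FPKM from the values: times transcript length, 84.2% to 86.2% of the values of genes with 1 GENCODE M21 transcript were whole multiples of a single step in each library (tolerance 0.01). The aligner, counter, annotation and build were not given in the sources used. The step gave the reads per library and, within 0.03 of whole numbers in all libraries, the reads of the 10 genes. Of 34745 lines per file, 126 with a repeated symbol were left out.

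Differences were fitted with limma 3.58.1 in R 4.3.3 (mean-variance trend, robust estimation) on log2(FPKM + 1), with a pseudocount of 1, all 9 libraries in 1 fit, group as the term, for genes that reached 1 FPKM in 3 or more libraries. P-values are two-sided, adjusted by Benjamini-Hochberg over all 13743 genes, and called under 0.05. A fold on this scale understates changes of low genes. The script was tested on simulated data with large changes and the same SD for every gene. That test does not show how well smaller changes in variable genes are found. Genes and lists were chosen with earlier results of these data known. Named genes were the 10 members, called genes of 3 pathway lists with the 3 smallest p per list in BPB, and the 3 genes most correlated with each member, of which those quoted are a part. Alternatives were other pseudocounts, filters, scalings, variance models and thresholds, the 6 libraries alone, a replicate block, and each library left out. Same-numbered libraries of BPB and BPAF had correlated deviations from their group means (0.34, 0.34 and 0.48), so their number was also fitted as a block. Same-numbered libraries of control and exposed did not (-0.40 to -0.08). Some differently numbered libraries correlated as much, such as control 3 with BPB 1 (0.45) and control 2 with BPB 3 (0.37). Others were negative, such as BPB 3 with BPAF 1 (-0.34). These correlations therefore do not establish pairs, and the labels give none.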

Additional observations from a re-analysis of the deposited data

How the results depend on the processing

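Under the alternatives tried, 0 axis genes were called in BPAF against control. In the other comparisons Igfbp2 was the only one ever called, with 1 gene called in BPB against control when the 6 libraries were fitted alone, and 0 to 1 genes when each library was left out, in BPB against control and in BPAF against BPB. Of 576 values of the 9 genes under alternatives, 539 kept their direction and side of the threshold, 3 passed it (Igfbp2) and 34 changed sign. Counts over all genes moved more, and the cause was not tested. In BPB against control 351 genes became 152 and 66 with pseudocounts of 0.1 and 0.01, 163 with no filter, 34 at a mean of 5 FPKM, 201 with equal sums, 19 with the replicate block, 774 at an adjusted p under 0.1, and 0 to 436 with 1 library left out. In BPAF against control 3 genes became 0 at a mean of 5 FPKM, 0 with the replicate block, 0 with the 6 libraries alone, 1 with equal sums and 0 to 2 with 1 library left out. In BPAF against BPB 33 became 0 with either pseudocount, 11 with no filter, 0 at a mean of 5 FPKM, 8 with equal sums, 0 with the replicate block in 9 or in 6 libraries, 0 with the 6 libraries alone, 66 at an adjusted p under 0.1, and 0 to 237 with 1 library left out. The block, which ended the Grb14 (adjusted p = 0.0574) and Socs3 (0.0875) calls in limma, changed no call of an axis gene.

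The sign changed only in results whose reported difference was at most 0.40 (log2), and none of these passed. With equal sums Igfbp5 became -0.069 in BPAF against control. With median ratios Igfbp5 and Igfbp7 became -0.27 and -0.20 in BPAF, and Igfbp6 and Igfbp7 -0.17 and -0.092 in BPB, against control. With 1 library left out, values in BPB against control ranged from -0.31 to 0.88 for Igf1r, -0.74 to 0.45 for Igfbp4, -0.26 to 1.14 for Igfbp5, -0.24 to 0.45 for Igfbp6 and -0.058 to 0.32 for Igfbp7. In BPAF against control they ranged from -0.67 to 0.34 for Igf1r, -0.65 to 0.76 for Igfbp5, -0.47 to 0.40 for Igfbp6 and -0.11 to 0.27 for Igfbp7. In BPAF against BPB they ranged from -0.97 to 0.045 for Igf1r, -0.27 to 0.37 for Insr, -1.28 to 1.35 for Igfbp3, -0.55 to 0.33 for Igfbp6 and -0.16 to 0.10 for Igfbp7. Socs3 lost its call under most settings, with adjusted p of 0.0592 at a pseudocount of 0.1 and 0.153 with equal sums in limma.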

Other observations

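The gene lengths behind the deposited FPKM could be read back from the values. For 8 of the 10 genes the length was the sum of all distinct exons of GENCODE M21, and in 7 of these overlapping exons of different transcripts were counted more than once. For Igf2 that length was 13154 bases, where the merged exons cover 5723, so its FPKM stands 2.30 times lower than on merged exons. For Igf1 it was 13144 against 9904 bases (1.33 times), for Igfbp5 9937 against 6006 (1.66 times) and for Igfbp7 1962 against 1209 (1.62 times). Igfbp6, with a single transcript, had 1112 bases by both. For Igf1r and Insr the length was 4489 and 10478 bases, where the sum of exons is 18938 and 15215, so the gene model behind these differs from GENCODE M21. Over all tested genes with more than 1 transcript and overlapping exons, 64.1% of 11322 gave whole reads in all libraries with the summed length and 0.291% with the merged length. Ratios of FPKM between groups within 1 gene do not depend on this length, whereas an order of genes by FPKM does. The filter at 1 FPKM and the added 1 depend on it too, most for low genes. On merged exons Igf2 had 2.30, 3.73 and 2.15 in BPB 1, 2 and 3, so it would have reached the level for testing. Igf2 was not tested on that scale.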
